A study of Mus musculus with 6 samples.

Results

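The BCL2 family genes described here are 10 genes that set whether a cell keeps or loses the integrity of its mitochondrial outer membrane, chosen by symbol and matched through the GENCODE M21 annotation of GRCm38 (mm10) to rows of a count table of 54532 Ensembl genes. All 10 were found, and 9 of them were among the 13323 genes with enough counts to be tested. The counts came from poly-A RNA of cardiomyocyte (CM) nuclei, which were pulled down with an antibody to PCM-1 from hearts of wild-type ICR mice. All mice received 1e11 viral genomes of AAV9 under the skin at postnatal day 6, and hearts were taken at day 9, which was 3 d later. The virus carried GFP (control), YAP5SA or YAP6SA behind the cTnT promoter, which limits expression to CMs. YAP5SA is an active form of YAP in which the serines phosphorylated by the LATS kinases are replaced by alanine, and YAP6SA carries 1 more such replacement that disrupts binding to TEAD. The study also reports less YAP6SA than YAP5SA in nuclei and a larger part of it in the cytoplasm. The variants thus differ in more than TEAD binding. The 6 libraries were 2 per virus, and replicate 1 and replicate 2 of a virus belong to batch 1 and batch 2. The labels name 2 hearts for each virus and do not say whether each library was made from 1 of them. The comparisons ask whether an active YAP, with or without TEAD binding, was accompanied by different transcript levels of survival and death genes.

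BCL2 proteins meet at the outer membrane of mitochondria. Pro-survival members hold back the effectors BAX and BAK, and BH3-only proteins, which are made or released under stress, tie up the survivors or switch on the effectors, so that the membrane opens, cytochrome c leaks out and caspases are activated. BNIP3 and BNIP3L are relatives that sit in the same membrane and recruit the autophagy machinery to remove mitochondria, a process known in CMs during maturation and in low oxygen.

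Gene counts were 14552847 to 19615627 per library. Levels are given in CPM, counts scaled to library size after scaling of the libraries by the trimmed mean of M values (TMM), and a gene at 0 counts could have had up to 3. *Yap1* had 1828 to 2647 counts in each of the 6 libraries and was not past the threshold in any comparison, so that the overexpression is not visible in it; whether reads of the virus are counted there was not tested. The markers of CMs summed to 59570 to 79470 CPM in the GFP libraries, 55610 to 72800 in the YAP6SA libraries and 35330 to 48580 in the YAP5SA libraries, where 2 of 9 were lower than in GFP (*Ryr2* and *Pln*). The 7 macrophage markers summed to 52.0 to 67.8 CPM in GFP and 63.7 to 108 in YAP5SA (*C1qa* was higher, log2 fold change 0.96). The 6 mural markers summed to 498 to 568 in GFP and 336 to 429 in YAP5SA. Of these, *Abcc9* was lower (log2 fold change -0.81), with 272 and 387 CPM in GFP and 216 and 156 in YAP5SA. It was the largest part of the mural sum in every library, and whether it marks mural cells in these nuclei was not tested. The other 5 mural markers were not past the threshold. The 7 fibroblast markers summed to 716 to 1053 in GFP and 720 to 1144 in YAP5SA. The 9 genes of S and G2/M phase summed to 127 to 163 and 439 to 631, with 9 of 9 higher in YAP5SA. No marker in these lists was at 0 in all libraries, and the part of other or cycling cells in the results below was not tested.

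In the RefSeq tables of GRCm38.p6, promoter windows of 300 bases, with 250 before and 50 after a transcript start, were found for 8 of the 10 members, with 13 windows in all. *Pmaip1* and *Bnip3l* were not matched. The 250 bases before the outermost start are shown for the 3 members that were higher in YAP5SA OE CMs, since YAP5SA and YAP6SA differ in TEAD binding. They are read 5′ to 3′ on the strand of the gene, and capitals mark a match, on either strand, to a TEAD motif (GGAATG), a hypoxia response motif (ACGTG or GCGTG), a FOXO motif (GTAAACA) or an E2F motif (TTTCCCGC or TTTGGCGC). The stretches lie at chr1:106714291-106714540 for *Bcl2*, chr2:152831729-152831978 for *Bcl2l1* and chr7:45466899-45467148 for *Bax*, all on the minus strand, and no annotated exon overlaps them.
Bcl2: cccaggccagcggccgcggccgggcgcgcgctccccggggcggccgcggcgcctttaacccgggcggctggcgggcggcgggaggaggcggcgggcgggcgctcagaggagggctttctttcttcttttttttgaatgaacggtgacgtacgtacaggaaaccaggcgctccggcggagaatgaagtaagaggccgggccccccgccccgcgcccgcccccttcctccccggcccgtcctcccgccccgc
Bcl2l1: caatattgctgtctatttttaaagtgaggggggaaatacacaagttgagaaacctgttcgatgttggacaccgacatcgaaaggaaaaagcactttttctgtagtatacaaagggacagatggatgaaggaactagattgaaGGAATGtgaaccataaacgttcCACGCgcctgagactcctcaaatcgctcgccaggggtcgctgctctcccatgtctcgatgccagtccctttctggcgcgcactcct
Bax: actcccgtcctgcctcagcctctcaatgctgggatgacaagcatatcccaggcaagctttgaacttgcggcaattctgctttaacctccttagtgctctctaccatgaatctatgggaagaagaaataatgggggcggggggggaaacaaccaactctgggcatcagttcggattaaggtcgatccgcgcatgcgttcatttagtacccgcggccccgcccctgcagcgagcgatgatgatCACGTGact
The *Bcl2* stretch is 74.8% G and C and held no match. The *Bcl2l1* stretch is 47.6% G and C and held a TEAD match that began 108 bases before the start (-108) and a hypoxia response match at -86. The *Bax* stretch held 1 palindrome just before the start, which counts as a match on each strand. Among the 13 windows of the members, 2 held the TEAD motif (1 each of *Bcl2l1* and *Mcl1*), against 14.7% of all 32851 windows. The hypoxia response motif was found in 8 of 13 and in 43.8% of all, the FOXO motif in 2 of 13 and in 3.65% of all, and the E2F motif in 0 of 13 and in 1.56% of all. These are matches of letters only.

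In YAP5SA OE CMs, the pro-survival genes *Bcl2* and *Bcl2l1* and the effector gene *Bax* rose against GFP, by 2.88-fold, 2.23-fold and 1.68-fold. The other 6 tested members were not past the threshold, and no tested member was lower. Of all genes tested, 12.8% were higher and 9.18% lower in that comparison. In YAP6SA OE CMs none of the 9 was past the threshold, beside 0.045% of all genes tested. *Bcl2* and *Bcl2l1* also differed between the variants directly, with 2.81-fold and 2.06-fold higher levels in YAP5SA than in YAP6SA OE CMs. These differences are per CPM of bulk nuclei, in which fewer cells of a type and less RNA per cell cannot be told apart. Transcripts in nuclei were counted, and protein was not measured.

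**Figure D1:**
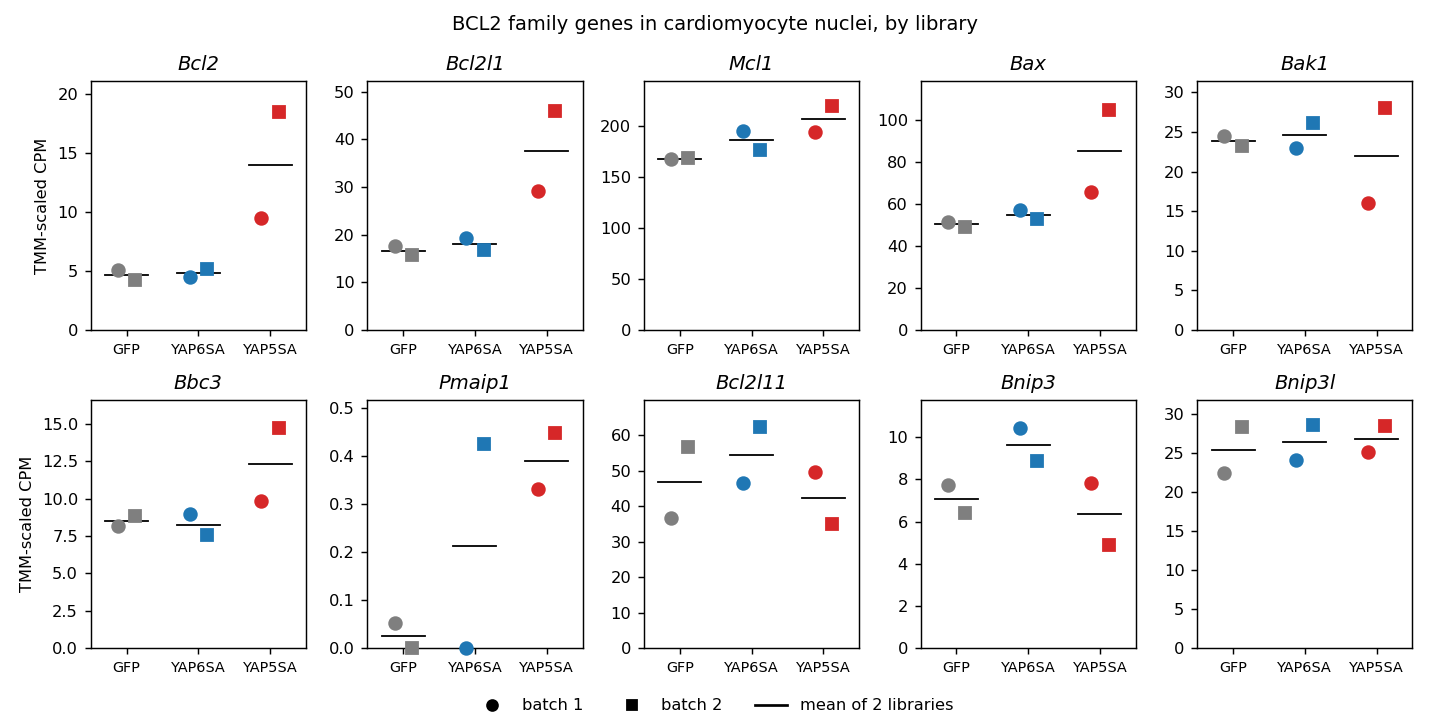
Levels of the 10 BCL2 family genes in TMM-scaled CPM (vertical axis from 0, with its own scale for each gene) in the GFP, YAP6SA and YAP5SA libraries. Circles are batch 1, squares batch 2 and lines the mean of 2 libraries. For *Bcl2*, *Bcl2l1* and *Bax* both YAP5SA libraries lie above the other 4, and the batch 2 library is the higher.

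*Bcl2* (ENSMUSG00000057329, chromosome 1, 106538178 to 106714274, minus strand) encodes the founding survival protein of the family. With batch 1 given first, it had 5.05 and 4.24 CPM in GFP, 4.53 and 5.15 in YAP6SA, and 9.47 and 18.5 in YAP5SA, from 65 to 330 counts. Both YAP5SA libraries lay above the other 4, and the GFP and YAP6SA libraries overlapped. The log2 fold change of YAP5SA against GFP was 1.53 (SE 0.36, 95% interval 0.73 to 2.32) with an adjusted p of 0.0149, where all adjusted p-values are from edgeR's quasi-likelihood test over all genes tested. Within the batches the difference in log2(CPM + 0.5), the scale of all such values here, was 0.85 and 2.00. Against YAP6SA it was 1.49 (SE 0.35, adjusted p = 0.0210), and YAP6SA against GFP gave 0.03 with an interval of -0.77 to 0.84. The call against GFP was lost without GFP replicate 2 (log2 fold change 1.11, adjusted p = 0.206) and without YAP5SA replicate 2 (1.02, adjusted p = 0.118). The call against YAP6SA was lost without YAP6SA replicate 1 (log2 fold change 1.59, adjusted p = 0.0678), YAP6SA replicate 2 (1.38, adjusted p = 0.224) or YAP5SA replicate 2 (0.97, adjusted p = 0.190).

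*Bcl2l1* (ENSMUSG00000007659, chromosome 2, 152780668 to 152831728, minus strand) encodes BCL-XL, a survival protein that binds BAX and BAK. Its levels were 17.5 and 15.8 CPM in GFP, 19.2 and 16.8 in YAP6SA, and 29.2 and 46.0 in YAP5SA. As for *Bcl2*, the YAP5SA libraries stood above all others and the other 2 groups overlapped. The log2 fold change of YAP5SA was 1.16 against GFP (SE 0.25, 95% interval 0.61 to 1.71, adjusted p = 0.0103), and the log2 differences within the batches were 0.72 and 1.51. Against YAP6SA it was 1.05 (SE 0.25, adjusted p = 0.0207), and YAP6SA differed from GFP by 0.11 (-0.44 to 0.66). The call against GFP was lost without GFP replicate 2 (log2 fold change 0.96, adjusted p = 0.131), and that against YAP6SA without YAP6SA replicate 2 (0.81, adjusted p = 0.286) or YAP5SA replicate 2 (0.63, adjusted p = 0.114).

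*Mcl1* (ENSMUSG00000038612, chromosome 3, 95658788 to 95663176, plus strand), whose short-lived survival protein is required in the adult heart, had the highest CPM of the members in every library. It had 167 and 168 CPM in GFP, 195 and 176 in YAP6SA, and 194 and 219 in YAP5SA. The YAP5SA libraries were above the GFP libraries and overlapped with YAP6SA. The log2 fold change of YAP5SA against GFP was 0.30 (95% interval -0.04 to 0.64) and was not past the threshold (adjusted p = 0.184). Without YAP5SA replicate 1 it was 0.43 and past it (adjusted p = 0.0396).

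*Bax* (ENSMUSG00000003873, chromosome 7, 45461697 to 45466898, minus strand) encodes an effector that moves from the cytosol to mitochondria and forms pores there. Its levels were 51.4 and 49.2 CPM in GFP, 57.1 and 52.6 in YAP6SA, and 65.8 and 105 in YAP5SA. The 3 groups did not overlap, and the 2 YAP5SA libraries lay further apart than the other 4. The log2 fold change of YAP5SA against GFP was 0.74 (SE 0.20, 95% interval 0.29 to 1.20, adjusted p = 0.0276), with log2 differences of 0.36 and 1.08 within the batches. Against YAP6SA it was 0.62 (SE 0.20) and missed the threshold (adjusted p = 0.0691), although the likelihood ratio test (adjusted p = 0.0378), the fit with no filter on low counts (0.0119) and the fit without YAP5SA replicate 1 (0.000169) passed it. The call against GFP was lost without GFP replicate 2 (log2 fold change 0.57, adjusted p = 0.288) and without YAP5SA replicate 2 (0.36, adjusted p = 0.199).

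*Bak1* (ENSMUSG00000057789, chromosome 17, 27019810 to 27029009, minus strand) encodes the other effector, which resides in the mitochondrial membrane. It had 24.5 and 23.2 CPM in GFP, 23.0 and 26.1 in YAP6SA, and 16.0 and 28.0 in YAP5SA. The YAP5SA libraries held both the lowest and the highest level of the 6. The log2 fold change of YAP5SA against GFP was -0.16 (95% interval -0.69 to 0.38, adjusted p = 0.683), and the difference from the change of *Bax* was not tested. In these libraries, which do not mark strand, 18.2% of the exon bases of *Bak1* are shared with *Ggnbp1* on the other strand. *Ggnbp1* had 3577 to 4574 counts in GFP and YAP6SA and 1596 to 1819 in YAP5SA. Its part in the counts of *Bak1* was not tested.

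Of the BH3-only genes, *Bbc3* (ENSMUSG00000002083, chromosome 7, 16308393 to 16318205, plus strand) encodes PUMA, a p53 target that binds all pro-survival members. It had 8.20 and 8.82 CPM in GFP, 8.95 and 7.58 in YAP6SA, and 9.87 and 14.7 in YAP5SA, where both libraries were above the other 4. Its log2 fold change of YAP5SA against GFP was 0.52 (SE 0.29, 95% interval -0.13 to 1.17) and was not past the threshold (adjusted p = 0.228). Against YAP6SA it was 0.55 (adjusted p = 0.230), and it passed only without YAP5SA replicate 1 (0.88, adjusted p = 0.0494).

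*Bcl2l11* (ENSMUSG00000027381, chromosome 2, 128126038 to 128162547, plus strand) encodes BIM, which responds to loss of growth factors. It had 36.8 and 56.6 CPM in GFP, 46.5 and 62.3 in YAP6SA, and 49.7 and 35.1 in YAP5SA. The batch 2 library was the higher in GFP and YAP6SA and the lower in YAP5SA. The log2 difference of YAP5SA from GFP was 0.43 in batch 1 and -0.68 in batch 2, and the fit gave -0.11 (95% interval -0.66 to 0.44, adjusted p = 0.792). Without YAP5SA replicate 1 it was -0.63 and past the threshold (adjusted p = 0.0142), as was the change against YAP6SA (-0.87, adjusted p = 0.00190). *Pmaip1* (ENSMUSG00000024521), which encodes the MCL1 antagonist NOXA, had 1 and 0 counts in GFP, 0 and 7 in YAP6SA, and 5 and 8 in YAP5SA, and was below the filter on low counts. In the fit with no filter it was not called, with an adjusted p of 0.640 for YAP5SA against GFP, 1.0 for YAP6SA against GFP and 0.912 between the variants.

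*Bnip3* (ENSMUSG00000078566, chromosome 7, 138890836 to 138909519, minus strand), a mitophagy receptor gene induced by hypoxia, had 7.73 and 6.40 CPM in GFP, 10.4 and 8.85 in YAP6SA, and 7.82 and 4.88 in YAP5SA. Both YAP6SA libraries were above the other 4. The log2 fold change of YAP6SA against GFP was 0.45 (SE 0.30, 95% interval -0.21 to 1.12, adjusted p = 0.899), and that of YAP5SA against YAP6SA was -0.63 (SE 0.30, 95% interval -1.30 to 0.04, adjusted p = 0.187). *Bnip3l* (ENSMUSG00000022051, chromosome 14, 66985239 to 67008877, minus strand), the receptor also called NIX, had the narrowest range of the tested members relative to its level, with 22.5 and 28.3 CPM in GFP, 24.1 and 28.6 in YAP6SA, and 25.1 and 28.4 in YAP5SA. All 3 groups overlapped, and the log2 fold change of YAP5SA against GFP was 0.08 (95% interval -0.33 to 0.50).

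By count, 3 of the 9 tested members were higher and 0 lower in YAP5SA against GFP, where 22.0% of all genes tested were called, 12.8% as higher and 9.18% as lower. Between YAP5SA and YAP6SA, 2 of 9 were higher and 0 lower, against 14.7% of all genes, 9.0% higher and 5.68% lower. In the joint test of both group terms 3 of 9 passed (*Bcl2*, *Bcl2l1* and *Bax*), against 17.6%. In YAP6SA against GFP edgeR called 0 of 9, against 0.045% of all genes, and 0 of 9 had an unadjusted p under 0.05, against 5.93%. DESeq2, limma-voom and edgeR's likelihood ratio test also called 0 of 9 there. The median log2 fold change of the 9 was 0.11 in YAP6SA against GFP, 0.30 in YAP5SA against GFP and 0.15 in YAP5SA against YAP6SA, beside medians of all genes tested of 0.0018, -0.0031 and -0.013. Both variants were compared with the same GFP libraries.

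The YAP5SA library of batch 2 had the highest level of the 6 for *Bcl2*, *Bcl2l1*, *Mcl1*, *Bax*, *Bak1* and *Bbc3* and the lowest for *Bcl2l11* and *Bnip3*. It also had the highest summed markers of cycling cells (631 CPM, against 439 in the batch 1 library) and of macrophages (108 against 63.7) and the lowest summed CM markers (35330 against 48580). Without it, *Bcl2l1* was the 1 member called in YAP5SA against GFP (log2 fold change 0.74), and without GFP replicate 2 no member was. Without YAP5SA replicate 1, 5 were called, with *Mcl1* higher and *Bcl2l11* lower in addition.

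**Figure D2:**
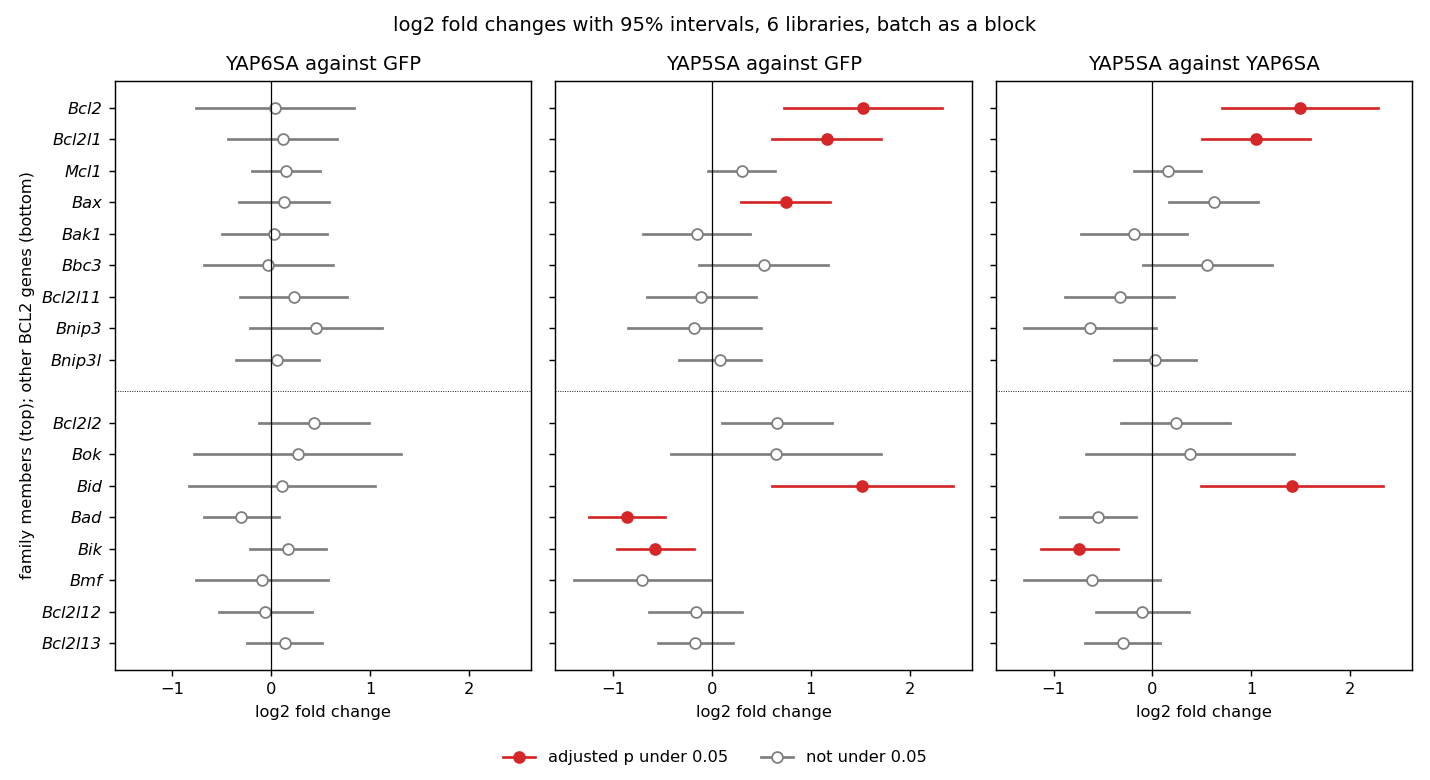
log2 fold changes (horizontal axis) of the 9 tested members and 8 other BCL2 genes in the 3 comparisons, with 95% intervals from the fit of all 6 libraries. Filled red points have an adjusted p under 0.05. In YAP6SA against GFP no gene is red, and in YAP5SA against GFP 4 genes are red on the right (*Bcl2*, *Bcl2l1*, *Bax* and *Bid*) and 2 on the left (*Bad* and *Bik*). Of all genes tested, 0.045% were called in YAP6SA against GFP. In YAP5SA against GFP 12.8% were higher and 9.18% lower.

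To compare genes with each other, counts were scaled by exon length, as CPM per kb of exon, with CPM per total gene count. In GFP, *Mcl1* was at 47.8 ± 2.43 (SD, n = 2) and *Bax* at 31.1 ± 2.60, and then came *Bak1* at 9.64 ± 0.880. *Bnip3l* (6.37 ± 0.695) and *Bcl2l11* (5.61 ± 1.40) overlapped, as did *Bcl2l1* (3.54 ± 0.446) and *Bnip3* (3.05 ± 0.567), and *Bbc3* (3.89 ± 0.0109) lay between these pairs. *Bcl2* was at 0.495 ± 0.0869, the lowest of the members above the floor in every library. With the length of the longest transcript in place of all exons, *Bcl2l1* was at 6.32, *Bcl2l11* at 8.95 and *Bax* at 44.5. The order of the 3 most abundant genes in GFP did not change. In the YAP5SA library of batch 2, *Bax* was at 69.1 and *Mcl1* at 66.5 with all exons as length.

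*Mcl1* made up 91.8% and 92.6% of the summed length-scaled level of the 3 pro-survival members in the GFP libraries, 92.4% and 92.4% in YAP6SA, and 88.5% and 84.2% in YAP5SA. The share of *Bcl2l1* was 7.16% and 6.49% in GFP, 6.78% and 6.56% in YAP6SA, and 9.91% and 13.2% in YAP5SA. The share of *Bcl2l1* was thus highest in the 2 YAP5SA libraries. With the longest transcript as length it was 12.1% and 11.0% in GFP, 11.5% and 11.1% in YAP6SA, and 16.4% and 21.2% in YAP5SA. *Bcl2l1* was at 0.117 and 0.110 of the level of *Bax* in GFP, 0.116 and 0.110 in YAP6SA, and 0.153 and 0.151 in YAP5SA. With the longest transcript these were 0.146 and 0.1375 in GFP, 0.144 and 0.137 in YAP6SA, and 0.190 and 0.1875 in YAP5SA. The ratio of the 3 pro-survival members to the 2 effectors was 1.25 and 1.30 in GFP, 1.35 and 1.26 in YAP6SA, and 1.33 and 0.973 in YAP5SA. In YAP5SA that ratio covered a wider range than in the other groups, which it overlapped. The ratio depends on the length used. With the longest transcript, *Bax* in GFP was at 44.5 in place of 31.1, and *Mcl1* stayed at 47.8. With that length the GFP means were 6.32 for *Bcl2l1*, 0.631 for *Bcl2* and 9.72 for *Bak1*. By these means the pro-survival members and the effectors were nearly level in GFP. The ratio by library with that length was not computed. These shares were not tested.

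**Figure D3:**
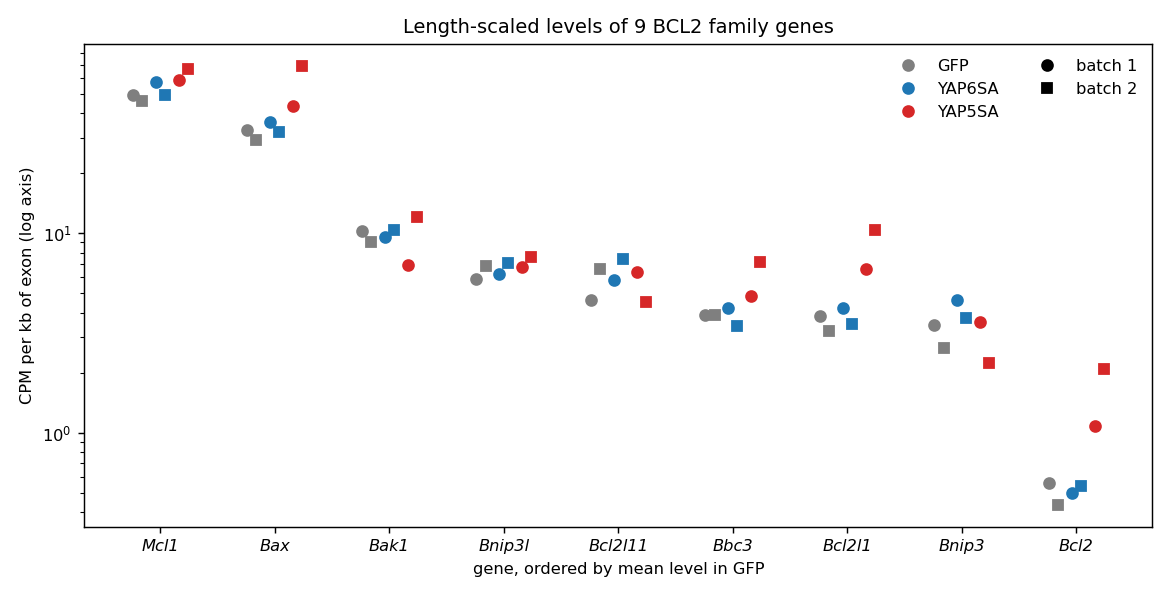
Length-scaled levels of 9 BCL2 family genes (CPM per kb of exon, log axis) in the 6 libraries, ordered by the mean in GFP, with groups by colour and batches by shape. *Pmaip1* is left out, at 0 in 2 libraries. *Mcl1* and *Bax* are the highest in all groups, and *Bcl2* is the lowest although both of its YAP5SA libraries are above 1.

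Of 15 other BCL2 genes, 8 were tested, of which 1 rose and 2 fell in YAP5SA OE CMs against GFP, where 22.0% of all genes tested were called. *Bid*, whose protein is cut by caspase 8 and then carries the death receptor signal to mitochondria, had 2.21 and 3.72 CPM in GFP, 3.21 and 2.85 in YAP6SA, and 5.70 and 11.6 in YAP5SA. It rose in YAP5SA with a log2 fold change of 1.52 (SE 0.41, adjusted p = 0.0263) against GFP and 1.41 (adjusted p = 0.0460) against YAP6SA, and 17.7% of its exon bases are shared with *Bcl2l13* on the other strand. *Bad*, a BH3-only gene regulated through growth factor kinases, had 51.3 and 50.0 CPM in GFP, 46.3 and 36.3 in YAP6SA, and 31.6 and 24.8 in YAP5SA. In YAP5SA it fell by 0.86 on the log2 scale against GFP (SE 0.17, adjusted p = 0.00792). Against YAP6SA its log2 fold change was -0.55 and missed the threshold (adjusted p = 0.0590). *Bad* shares 20.5% of its exon bases with *Gpr137* on the other strand, which had 1611 to 2062 counts in GFP and YAP6SA and 978 to 1063 in YAP5SA. *Bik*, another BH3-only gene, fell by 0.57 (adjusted p = 0.0419) against GFP and by 0.74 (adjusted p = 0.0210) against YAP6SA. Its call against GFP was lost in DESeq2 (adjusted p = 0.0563), in the fit without a replicate block (0.0578) and in the fit of 4 libraries (0.0804). The pro-survival gene *Bcl2l2* had a log2 fold change of 0.66 (adjusted p = 0.0839), *Bmf* -0.71 (0.128), the effector relative *Bok* 0.65 (0.360), *Bcl2l12* -0.16 (0.614) and *Bcl2l13* -0.17 (0.516), none past the threshold. The BH3-only gene *Bmf* passed with no filter (adjusted p = 0.0359) and without YAP5SA replicate 1 (-1.34, adjusted p = 0.000378), and *Bok* without YAP5SA replicate 1 (1.34, adjusted p = 0.0378). *Bcl2a1a*, *Bcl2a1b* and *Bcl2a1d*, close copies among which reads may be split, had 0 to 18 counts, most in the YAP5SA library of batch 2 for each. *Bcl2l10*, *Hrk* and *Bcl2l15* had 0 to 33 counts, and *Bcl2l14* had 0 in all libraries.

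Downstream of the outer membrane, *Apaf1*, whose protein binds cytochrome c to build the apoptosome, had 20.1 and 18.5 CPM in GFP, 22.2 and 18.5 in YAP6SA, and 44.9 and 66.1 in YAP5SA. It rose by 1.51 on the log2 scale against GFP (SE 0.23, adjusted p = 0.00215) and by 1.44 against YAP6SA (adjusted p = 0.00357). Of 11 apoptosome and caspase genes, it and *Casp8* (1.01, adjusted p = 0.0164) were higher and *Casp6* (-0.87, adjusted p = 0.0152) was lower in YAP5SA against GFP. Of 9 caspase inhibitors and their antagonists, *Birc5* (1.90, adjusted p = 0.00144), the survivin gene that also serves in mitosis, and *Htra2* were higher and *Birc2* (-0.47, adjusted p = 0.0436) was lower. *Htra2*, which encodes a mitochondrial protease that antagonises the inhibitors, went from 28.6 and 28.7 CPM in GFP to 110 and 198 in YAP5SA (log2 fold change 2.37, SE 0.20, adjusted p = 0.000187), and had 30.7 and 42.7 in YAP6SA. It shares 25.6% of its exon bases with *Aup1* and 18.2% with *Loxl3*, both on the other strand, which had 1602 to 2177 and 116 to 183 counts.

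Of 9 death receptor genes, *Fas*, *Tnf* and *Tnfrsf10b* were higher in YAP5SA against GFP and none was lower. *Fas*, the receptor gene, had 23.7 and 24.3 CPM in GFP, 44.0 and 53.1 in YAP6SA, and 65.4 and 80.2 in YAP5SA. The 3 groups did not overlap and YAP6SA lay between. Its log2 fold change was 1.59 for YAP5SA against GFP (SE 0.16, adjusted p = 0.000374) and 0.58 against YAP6SA (adjusted p = 0.0350). For YAP6SA against GFP it was 1.01 (SE 0.16), not past the threshold in this fit (adjusted p = 0.142) and past it in DESeq2 (0.00385), the likelihood ratio test (0.000320), the fit with no filter (0.000280), the fit of the 4 libraries compared (0.000364) and the fits without YAP5SA replicate 1 (0.000985) or YAP5SA replicate 2 (0.000962). *Tnf* had a log2 fold change of 1.92 in YAP5SA (adjusted p = 0.0265) and *Tnfrsf10b* 0.93 (adjusted p = 0.0389). *Tnf* passed the filter on low counts only through its YAP5SA level, so that only a rise could be called for it.

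Around *Bnip3* and *Bnip3l*, 0 of 12 other mitophagy genes rose and 1 fell in YAP5SA OE CMs against GFP. *Phb2*, an inner membrane receptor gene, fell by 0.52 on the log2 scale (SE 0.16, adjusted p = 0.0428). Of 9 genes for outer membrane channels and for fission and fusion, *Mfn1*, which joins outer membranes, was lower (-0.93, SE 0.22, adjusted p = 0.0145) and none was higher. None of 4 tested genes for turnover of MCL1 and BIM was past the threshold in edgeR, and 1 had an unadjusted p under 0.05.

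Of 16 transcription factors known to act on these genes, 4 were higher and 2 lower in YAP5SA against GFP, where 12.8% of all genes tested were higher and 9.18% lower, the shares beside which the counts of the other lists are also to be read. *Trp63*, of the p53 family, went from 0.789 and 1.05 CPM in GFP to 11.3 and 10.9 in YAP5SA (log2 fold change 3.61, SE 0.42, adjusted p = 0.000691). *Trp63* passed the filter on low counts only through its YAP5SA level, so that only a rise could be called for it. *E2f1* went from 3.89 and 3.20 to 20.9 and 29.0 (2.81, SE 0.31, adjusted p = 0.000525), and *E2f2* (2.02) and *Myc* (1.48) were the other two that rose. The 2 that fell, *Ddit3* (-1.35) and *Epas1* (-0.72), are named after their values were seen. Of 16 p53 targets outside the family, 5 were higher, among them *Gtse1* (1.49), *Phlda3* (1.24), *Aen* (1.14) and *Cdkn1a* (1.07), and 3 were lower. Of 18 targets of the hypoxia factors, 5 were higher, among them the glucose carrier gene *Slc2a1* (2.39), *P4ha1* (1.49) and *Pgk1* (0.75), and 2 were lower, among them *Hk2* (-0.77).

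Over these 11 lists, 112 genes were tested, of which 22 were higher and 13 lower in YAP5SA against GFP and 16 higher and 9 lower in YAP5SA against YAP6SA. That is 31.2% and 22.3% called, beside 22.0% and 14.7% of all genes tested, and the difference from all genes was not tested. The higher genes in both comparisons include *Trp63* and *Tnf*, which the filter kept only through their YAP5SA levels. In YAP6SA against GFP edgeR called 0 of 112, against 0.045% of all genes tested. Of the 112, 14 had an unadjusted p under 0.05, against 5.93% of all genes tested, and the difference was not tested. There DESeq2 called 1 (*Fas*) beside 54 of all genes, and limma-voom 0 beside 5. The likelihood ratio test called 3 beside 82 of all genes, the fit with no filter 3 beside 145, and the fit of 4 libraries 6 beside 276. Without YAP5SA replicate 1 or YAP5SA replicate 2, 5 were called in each fit (*Fas*, *Map1lc3a*, *Egln3*, *Ldha* and *Pgk1*). Of the 28 named genes outside the members that were called in YAP5SA against GFP, *Apaf1*, *Htra2*, *Birc5*, *Fas*, *Trp63*, *E2f1*, *Cdkn1a*, *P4ha1* and *Ddit3* were called with any 1 library left out. Without GFP replicate 2, 19 of the 28 were lost (adjusted p 0.0688 to 0.437), without YAP5SA replicate 2, 13 (0.0529 to 0.320), and without GFP replicate 1, 8 (0.0866 to 0.220). Without YAP6SA replicate 1 or YAP6SA replicate 2, 4 were lost in each fit, *Bik*, *Birc2*, *Tnfrsf10b* and *Phb2*, and without YAP5SA replicate 1 none.

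**Figure D4:**
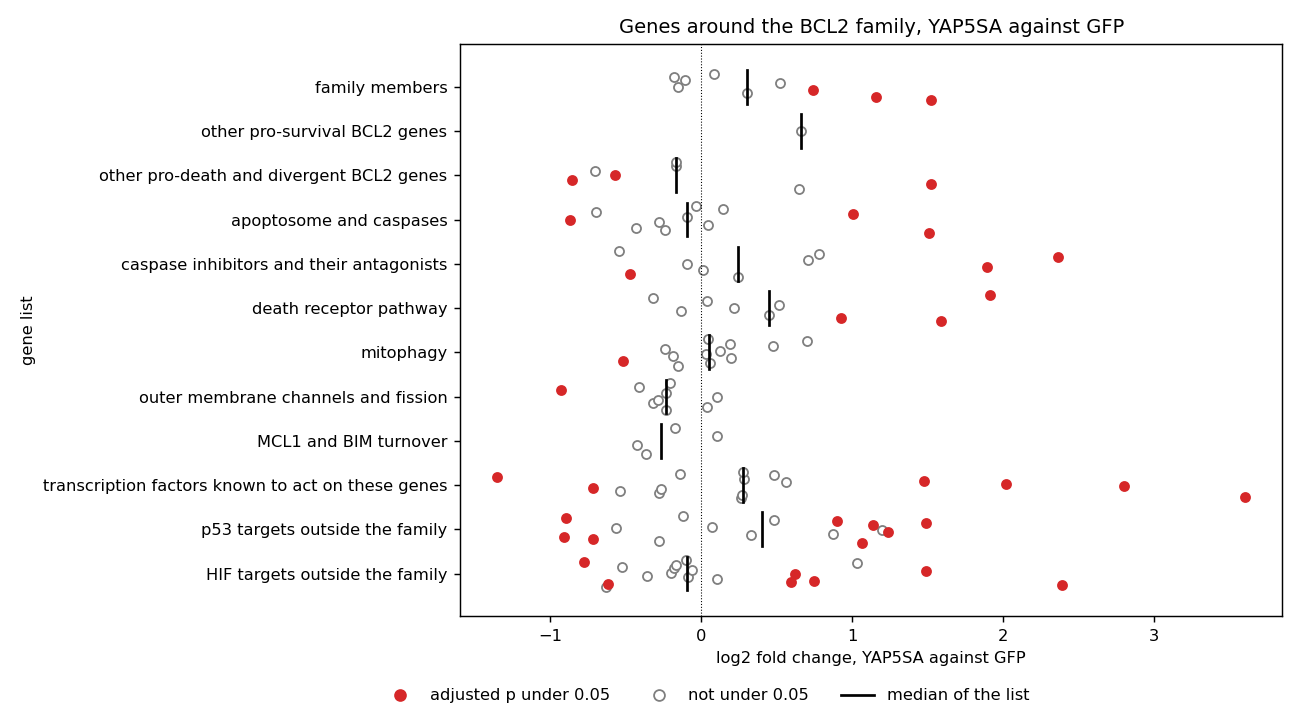
log2 fold changes of YAP5SA against GFP (horizontal axis) for the tested genes of the BCL2 family and of 11 other gene lists (rows). Filled red points have an adjusted p under 0.05, and bars mark the median of each list. *Trp63* (3.61) and *E2f1* (2.81) lie furthest to the right, and the list medians lie between -0.27 and 0.66. *Trp63* was tested only because its YAP5SA level passed the filter on low counts.

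The 5 genes whose log2 CPM followed *Bcl2* most closely over the 6 libraries were *Arhgap1* (Pearson r = 0.9991), *Tnfsf15* (0.9986), *Fmnl2* (0.9978), *Osbpl5* (0.9977) and *Il17rc* (0.9977). Among 13322 genes compared in 6 libraries that share groups and batches, this is a description of likeness in these libraries.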

How the data were processed

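Poly-A RNA from PCM-1-bound CM nuclei was sequenced in 6 non-directional libraries. Per the labels and methods, the authors aligned reads with STAR to mm10 (GRCm38) and deposited raw read counts per gene, which were used as they stand. Genes with a median log2 CPM over 1 in at least 1 group were kept (13323 of 54532). The quasi-likelihood test of edgeR 4.0.16 (R 4.3.3) was applied after TMM scaling, with batch and group as terms over all 6 libraries, and adjusted by Benjamini-Hochberg with a threshold of 0.05. Standard errors were taken from the F statistic. The replicate number is the batch number in the labels, which pairs the libraries. Deviations of same-batch libraries correlated across genes at 0.394 for GFP with YAP6SA. The correlations were weaker for YAP6SA with YAP5SA (0.180) and for GFP with YAP5SA (0.107). p-values measure the spread between libraries, and replicates differed by more than counting error (chi-square per degree of freedom 25.6 to 40.1). Rows of reads not assigned to a gene, 22.0% to 23.4% of all, stayed out. The alternatives were RLE and upper quartile scaling, 2 other filters, the likelihood ratio test, DESeq2 1.42.0, limma-voom (limma 3.58.1), no replicate block, the 4 libraries compared, other thresholds and each library left out, on the genes of the 6-library fit. In simulated counts for YAP5SA against GFP (13021 genes), 52 of 100 genes with a log2 change of 1 and 95 of 100 with 2 were recovered, with 16 false calls. For YAP6SA against GFP (13030 genes) these were 50 of 100, 94 of 100 and 6. The simulated counts held no batch effect and 100 changed genes of each size, beside 2931 genes called in the data in YAP5SA against GFP. The shares recovered in the data can therefore differ. The members and lists were chosen with earlier results of these data known. Named were all members, all other BCL2 genes, and of each other list at most 4 genes past the threshold with the largest change, to which 2 transcription factor genes that fell were added after their values were seen. 1 gene first placed in the mitophagy list was taken out of it and is not reported here.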

Additional observations from a re-analysis of the deposited data

How the results depend on the processing

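With another scaling, filter or test, without the replicate block or with only the 4 libraries compared, *Bcl2*, *Bcl2l1* and *Bax* were called in YAP5SA against GFP in 9 of 9 fits (highest adjusted p 0.0219, 0.0162 and 0.0437), and no member was called in YAP6SA against GFP. At a threshold of 0.01, 0 members were called in YAP5SA against GFP and 0 against YAP6SA. With each library left out, the members called numbered 0 to 5 in YAP5SA against GFP, 0 to 5 in YAP5SA against YAP6SA and 0 in YAP6SA against GFP. All genes called in YAP6SA against GFP were 6, and 2 at a threshold of 0.01, 145 with no filter, 82 by the likelihood ratio test, 54 by DESeq2, 276 with the 4 libraries compared, 6 to 213 with a library left out and 0 with no replicate block. In YAP5SA against GFP 2931 genes were called, 1117 at 0.01 and 738 to 4863 with a library left out. In YAP5SA against YAP6SA 1956 were called, 660 at 0.01, 3039 at 0.1, 1152 with no replicate block and 396 to 4160 with a library left out. Among the named genes in YAP5SA against GFP, dropping the replicate block lost the calls of *Bik*, *Birc2*, *Phb2* and *Epas1*, the fit of 4 libraries these and *Tnfrsf10b*, DESeq2 *Bik* and *Birc2*, and no filter *Birc2*. The cause of these differences was not tested.

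Of the members' log2 fold changes under all alternatives, 368 kept direction and call, 7 became called, 10 lost the call and 20 changed sign, all of the last with a library left out and with no call in the fit of 6 libraries. In YAP6SA against GFP the ranges over left-out libraries were -0.35 to 0.49 for *Bcl2*, -0.13 to 0.33 for *Bcl2l1*, -0.10 to 0.33 for *Bax*, -0.23 to 0.33 for *Bak1*, -0.34 to 0.24 for *Bbc3*, -0.077 to 0.58 for *Bcl2l11* and -0.0021 to 0.12 for *Bnip3l*. In YAP5SA against GFP they were -0.53 to 0.21 for *Bak1*, -0.63 to 0.40 for *Bcl2l11* and -0.39 to 0.039 for *Bnip3*. In YAP5SA against YAP6SA they were -0.57 to 0.17 for *Bak1*, -0.87 to 0.16 for *Bcl2l11* and -0.021 to 0.094 for *Bnip3l*. Outside the members, and not among the 20, *Bok* ranged from -0.18 to 1.34 and *Bcl2l12* from -0.34 to 0.027 in YAP5SA against GFP. A fit with 1 library in a group assumes that it varies like the others. With 2 libraries per group, 50 of 100 simulated log2 changes of 1 were recovered in YAP6SA against GFP and 52 of 100 in YAP5SA against GFP. The simulated counts held no batch effect and fewer changed genes than were called in YAP5SA, so these shares need not hold in the data. *Pmaip1* was tested only with no filter, where it was not called.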
